A study of Homo sapiens with 4 samples.

Results

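Chromatin accessibility at the genes of 6 myeloid granule proteins (MPO, AZU1, PRTN3, ELANE, CTSG and LYZ) was read from ATAC-seq peak lists of ME-1 cells. The ME-1 line was established from a human acute myeloid leukaemia, carries inv(16) and makes the fusion protein CBFβ-SMMHC, and all libraries come from this 1 line. One group received DMSO, the solvent, and the other AI-10-49 at 1 µM, a small molecule that blocks binding of CBFβ-SMMHC to RUNX1, and both were collected at 6 h. Each group held 2 libraries from separate experiments, per the series' design text. Peaks were taken by position, with a midpoint within 30 kb of an approximate hg19 start of a member gene. AZU1, PRTN3 and ELANE lie side by side on chromosome 19 and form 1 locus, so there were 4 loci. The rule gave 48 of the 234888 peaks in the lists, which merged into 20 of 103230 regions when peaks that overlapped by at least 1 bp were joined.

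All of these proteins are stored in the granules of neutrophils or their precursors, and most are packed there at the promyelocyte stage. MPO, myeloperoxidase, makes hypochlorous acid from hydrogen peroxide. ELANE (neutrophil elastase), PRTN3 (proteinase 3) and CTSG (cathepsin G) are related serine proteases, and AZU1 (azurocidin) is a relative that has lost its protease activity and kills microbes. LYZ, lysozyme, cuts the bacterial cell wall and is also abundant in monocytes. RUNX1 with its partner CBFβ, PU.1, C/EBP factors and MYB are known regulators of this group of genes in myeloid precursors.

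An accessible promoter is where such factors can reach the DNA. The sequences at the starts of 3 members are shown, the only ones that the promoter table held. They were not chosen for their peaks, and the motifs were not compared with the peaks. CTSG had a peak at its start in 3 libraries, AZU1 in 1, and PRTN3 had none in any library. The sequences are from RefSeq (GRCh38.p14), from 250 bases before to 50 bases after the gene start, 5′ to 3′ on the strand of the gene. Capitals mark matches to any of 7 short motifs on either strand. The positions below are on GRCh38.p14 and were not converted to hg19, the build of the peaks.
CTSG, chr14:24576201-24576500, minus strand: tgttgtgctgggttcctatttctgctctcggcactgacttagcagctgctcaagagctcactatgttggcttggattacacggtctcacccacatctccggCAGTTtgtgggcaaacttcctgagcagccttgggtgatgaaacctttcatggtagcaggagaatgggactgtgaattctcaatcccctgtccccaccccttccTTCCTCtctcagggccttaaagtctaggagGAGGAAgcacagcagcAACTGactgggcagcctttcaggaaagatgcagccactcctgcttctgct
AZU1, chr19:827587-827886, plus strand: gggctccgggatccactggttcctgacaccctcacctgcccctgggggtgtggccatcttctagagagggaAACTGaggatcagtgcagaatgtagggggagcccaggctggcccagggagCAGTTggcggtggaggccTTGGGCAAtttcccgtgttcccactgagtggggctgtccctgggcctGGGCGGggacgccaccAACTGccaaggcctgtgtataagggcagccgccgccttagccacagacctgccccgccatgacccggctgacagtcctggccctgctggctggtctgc
PRTN3, chr19:840749-841048, plus strand: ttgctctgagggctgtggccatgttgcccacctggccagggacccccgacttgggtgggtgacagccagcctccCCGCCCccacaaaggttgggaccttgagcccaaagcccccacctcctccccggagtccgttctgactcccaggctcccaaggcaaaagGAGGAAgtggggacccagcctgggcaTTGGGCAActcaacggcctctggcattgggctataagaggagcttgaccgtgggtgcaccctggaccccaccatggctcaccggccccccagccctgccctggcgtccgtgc

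The motifs searched were TGTGGT (RUNX), GAGGAA (the ETS core bound by PU.1), TTGCNNAA (C/EBP), AACTG (MYB), CACGTG (the MYC E-box), TGANTCA (AP-1) and GGGCGG (GC box). They occurred in 13.1%, 27.9%, 10.5%, 39.7%, 7.26%, 7.71% and 45% of the 35116 promoters of the table, in that order. In CTSG, GAGGAA was found at -46 (opposite strand) and -16 (strand of the gene) from the gene start, and AACTG at -149 (opposite strand) and at the first base of the gene (strand of the gene). In PRTN3, GAGGAA was found at -88, TTGCNNAA on the opposite strand at -62, and GGGCGG on the opposite strand at -176. AZU1 held TTGCNNAA on the opposite strand at -111, GGGCGG at -64, and AACTG at -179 and -48 (strand of the gene) and at -129 (opposite strand). No RUNX, E-box or AP-1 match was found in the 3 windows, which says only that these letters are not in these windows. The promoter table held 3 of the 6 members; MPO, ELANE and LYZ were not among them.

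The 4 lists held 67388 and 65132 peaks under DMSO and 48930 and 53438 under AI-10-49. Depth is known only through the reads at each peak's summit, recovered from the deposited values, and the lowest number in a list was 2 reads under DMSO and 3 under AI-10-49. A gene with no listed peak therefore had a signal under the level at which peaks were called, which is not the same as closed chromatin. As a check of the cell type, 3 of 5 myeloid marker genes (SPI1, CD33 and CSF3R, but not CEBPA or CSF1R) had a region listed in all 4 libraries within 5 kb of their start. How often other genes have such a region was not determined, so this count alone does not identify the cells. CSF1R, a monocyte marker, had no peak in any library, and CEBPA had one in 3, with 4 reads under DMSO and 9 and 7 under AI-10-49. Among markers of other cell types, HBB (erythroid) also had a peak in 3 libraries, with 4 reads under DMSO and 7 and 6 under AI-10-49, CD3E (T cells) had one of 2 reads in DMSO replicate 2, and ALB (hepatocytes) and MYOD1 (muscle) had none. The libraries are of bulk cells, so a site open in fewer cells and a site less open in every cell cannot be told apart.

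The granule gene loci held as many peaks under AI-10-49 as under DMSO. DMSO replicates 1 and 2 had 16 and 8 peaks there, and AI-10-49 replicates 1 and 2 had 13 and 11. The mean was 12.0 ± 5.66 under DMSO and 12.0 ± 1.41 under AI-10-49 (SD, n = 2 each), a difference of 0 (two-sided exact permutation p = 1; the smallest p that 2 against 2 libraries allow is 0.333). The AI-10-49 values lay between those of the DMSO replicates, which were the extremes. Per 10000 peaks of the list the numbers were 2.37 and 1.23 under DMSO and 2.66 and 2.06 under AI-10-49, so DMSO replicate 2 was the lowest on this scale too. Leaving out DMSO replicate 1 made the difference 4 more peaks under AI-10-49, and leaving out DMSO replicate 2 made it 4 fewer. In bases, the peaks covered 1674 and 1243 bp under DMSO and 1677 and 1654 bp under AI-10-49.

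**Figure D1:**
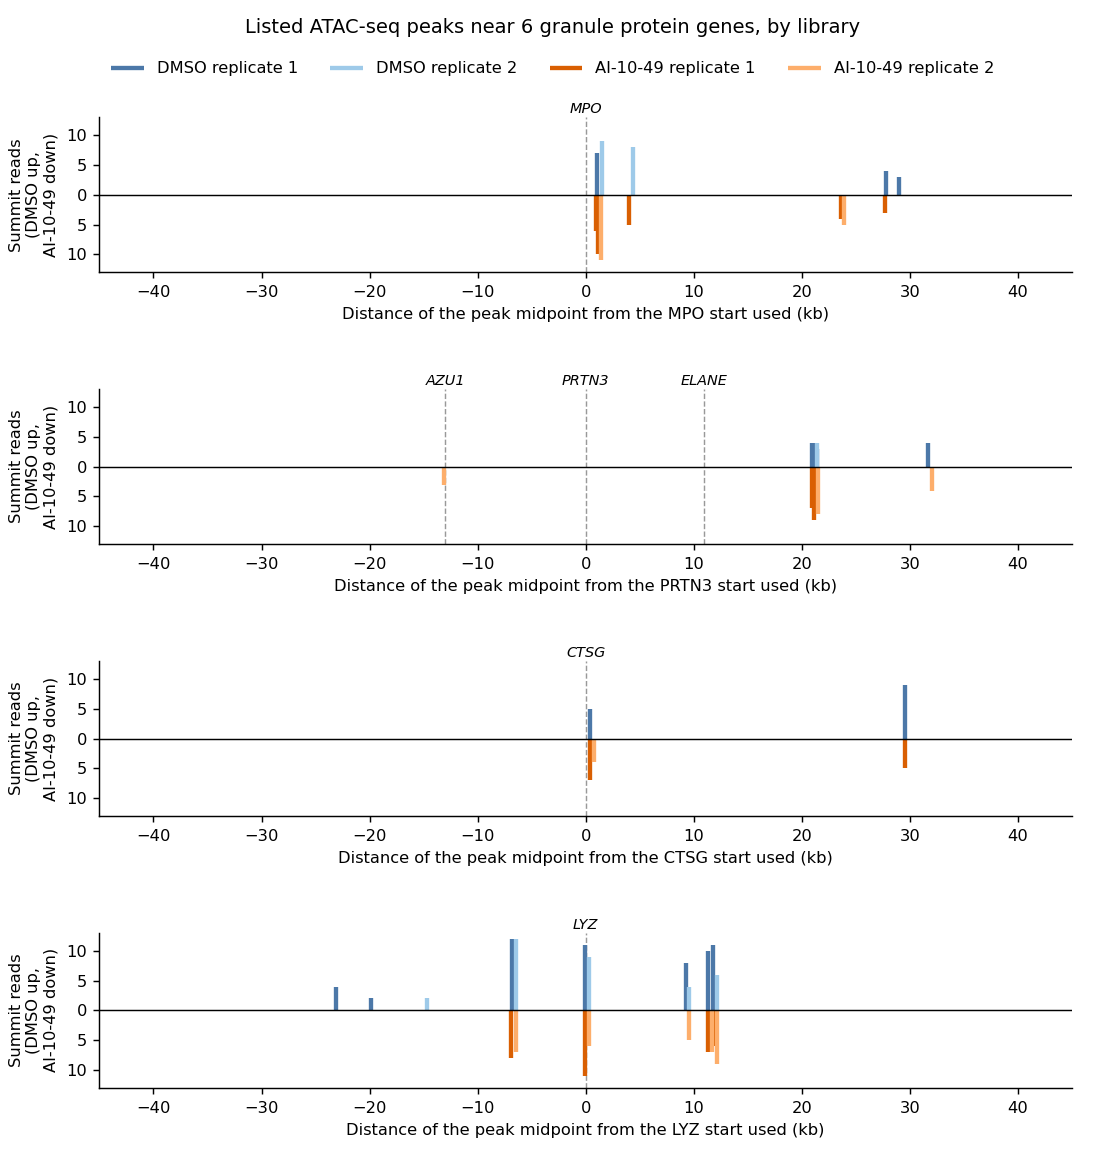
Peaks at each of the 4 loci: the x axis is the distance of the peak midpoint from the gene start used (kb), and bar length is the number of reads at the summit, upward for DMSO and downward for AI-10-49. Replicates are shifted slightly sideways so that neither hides the other, dashed lines mark the gene starts, and the 3 starts on chromosome 19 carry at most a single bar, of 3 reads at AZU1.

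One of the 20 regions was listed in both libraries of a treatment and in neither of the other. Of the 20 regions, 5 held a peak in all 4 libraries, or 25% (95% exact binomial interval 8.66 to 49.1%, counting error only), against 28.1% over all merged regions. A single library alone held 6 of them (30%, interval 11.9 to 54.3%), against 43.9% over all regions. The 6 regions listed by both DMSO replicates included 0 that were missing from both AI-10-49 libraries (interval 0 to 45.9%), against 11.8% over all regions. The 8 regions listed by both AI-10-49 replicates included 1 that was missing from both DMSO libraries (12.5%, interval 0.316 to 52.7%), against 5.36% over all regions. With so few regions these shares cannot be told from those of all regions. The regions listed everywhere were 3 in the LYZ window, 1 in that of MPO and 1 at 10.3 kb above ELANE, and there were 0 at CTSG.

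The members differed in whether a peak was listed at their start. LYZ had a peak within 2 kb of its start in 4 of 4 libraries, as did MPO, and CTSG had one in 3. AZU1 had one in AI-10-49 replicate 2 alone, and PRTN3 and ELANE had none. How often other genes have a listed peak at their start was not determined. The nearest peak to the PRTN3 start was 21.1 kb away in DMSO replicate 1 and -13.2 kb away in AI-10-49 replicate 2, where it was the AZU1 peak. The nearest to the ELANE start was between 10.1 and 10.3 kb away in the 4 libraries. These starts are approximate to about 1 kb, and whether a peak lies in an exon, an intron or a UTR was not determined, because gene models on hg19 were not used here.

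The LYZ locus held 8 of the 20 regions and 3 of the 5 that were listed in all libraries. It had 7 and 5 peaks under DMSO and 4 and 5 under AI-10-49, so the groups met at 5. At the LYZ start, chr12:69742035-69742183 (hg19), the summit had 11 reads in DMSO replicate 1, 9 in DMSO replicate 2, 11 in AI-10-49 replicate 1 and 6 in AI-10-49 replicate 2. The highest DMSO and AI-10-49 values were equal, and AI-10-49 replicate 2 was the lowest. For 11 reads the 95% exact Poisson interval was 5.49 to 19.7 and for 6 reads 2.20 to 13.1, counting error only, so the library values overlapped within counting error. The sign of the distance follows the coordinates, and LYZ is transcribed toward higher ones, so negative distances at LYZ are upstream.

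Upstream of LYZ, at -6.67 kb, the region chr12:69735260-69735409 had the highest summits among all granule gene regions in the DMSO libraries. It had 12 reads in each DMSO library, against 8 in AI-10-49 replicate 1 and 7 in AI-10-49 replicate 2. Both AI-10-49 values were below both DMSO values, with means of 12.0 ± 0.0 and 7.50 ± 0.707 reads (SD, n = 2 each). Library depth was allowed for by dividing by the median summit of the 29042 regions listed in all 4 libraries, which was 8 and 7 reads under DMSO and 9 and 10 under AI-10-49. On this relative scale the region stood at 1.5 and 1.71 under DMSO and 0.889 and 0.70 under AI-10-49, a log2 difference of -1.02. Among the regions listed in all 4 libraries it ranked at percentiles 73.8 and 79.7 under DMSO and 42.7 and 25.9 under AI-10-49. It was above the median of the shared sites in both DMSO libraries and below it in both AI-10-49 libraries.

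On plain reads, both AI-10-49 libraries were below both DMSO libraries at 3.81% of all regions listed in all 4 libraries, and at 35.1% both were above. On the relative scale these shares were 18.7% below and 19.7% above, and as multiples of the library's background (the commonest background in its list) 47.9% below and 5.21% above. The LYZ upstream region was below on each scale. Its Poisson intervals were 6.2 to 21 reads under DMSO and 3.45 to 15.8 and 2.81 to 14.4 under AI-10-49, which overlap. The local background set against the summit was 0.156 and 0.163 reads per base under DMSO and 0.169 and 0.163 under AI-10-49. The difference is described and was not tested, since heights are values of peaks called separately in each library.

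The other LYZ regions lay on both sides of the gene. The region at 11.9 kb, chr12:69753755-69754136, was listed everywhere, at 11 and 6 reads under DMSO and 6 and 9 under AI-10-49, where the groups overlap. At 11.5 kb, chr12:69753419-69753598 had 10 reads in DMSO replicate 1 and 7 in each AI-10-49 library, and was not listed in DMSO replicate 2. At 9.41 kb, chr12:69751352-69751469 had 8 and 4 reads under DMSO and 5 in AI-10-49 replicate 2, and was not listed in AI-10-49 replicate 1. The next protein-coding gene toward higher coordinates in RefSeq is YEATS4, a reader of histone acetylation, so these 3 regions need not belong to LYZ. The remaining 3 regions lay between -14.9 and -22.9 kb and each appeared in 1 DMSO library, with 4, 2 and 2 reads. As no AI-10-49 list held any peak of 2 reads, the weakest of these could be listed under DMSO alone.

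MPO had 1 region near its start in every library and little else in common between libraries. At 1.26 kb from the start, chr17:56359105-56359410 had 7 and 9 reads under DMSO and 10 and 11 under AI-10-49. Both AI-10-49 values were above both DMSO values in reads, as at 35.1% of shared regions. However, AI-10-49 replicate 1 listed 2 peaks in this region, and its value is that of the higher. The weaker, chr17:56359120-56359215, had 6 reads, below both DMSO values. It lies within the DMSO replicate 1 peak, chr17:56359107-56359285. On the relative scale the values of the region were 0.875 and 1.29 under DMSO and 1.11 and 1.10 under AI-10-49. The groups overlapped there and the log2 difference was 0.06. As multiples of the background, both AI-10-49 values (103.6 and 102.2) were below both DMSO values, of which the lower was 114.2. The direction at MPO therefore changed with the scale. MPO is transcribed toward lower coordinates, so the region is upstream of it.

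Farther upstream of MPO, the region at 4.19 kb, chr17:56362149-56362235, had 8 reads in DMSO replicate 2 and 5 in AI-10-49 replicate 1 and was not listed in the other two libraries. At 23.8 kb, chr17:56381729-56381836 was the single region of the loci found in both AI-10-49 libraries and in neither DMSO library. It was weak, with 4 and 5 reads, at 0.444 and 0.50 of the median shared summit. The gene on that side of MPO in RefSeq is TSPOAP1, whose product binds the mitochondrial translocator protein. Regions at 27.9 kb (4 reads in DMSO replicate 1 and 3 in AI-10-49 replicate 1) and at 29.1 kb (3 reads in DMSO replicate 1) closed the window. Just outside it on the other side, at -30.8 kb, a region had 7 and 4 reads under AI-10-49 and was not listed under DMSO. Of all regions listed in both AI-10-49 libraries, 5.36% were of this kind.

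On chromosome 19, the protease cluster itself was almost without peaks. The AZU1 peak, chr19:827707-827811 at -0.241 kb, had 3 reads in AI-10-49 replicate 2, the lowest number that this list holds, and was not listed in the other libraries. No other peak lay between 30 kb below AZU1 and the ELANE start. All other peaks of the locus were at 10.1 to 20.9 kb above ELANE, and the next protein-coding gene on that side in RefSeq is CFD, which encodes complement factor D, a serine protease of the alternative complement pathway. Just outside the window, at -30.8 kb from the AZU1 start, chr19:796916-797455 was listed everywhere, at 14 and 11 reads under DMSO and 28 and 29 under AI-10-49. On plain reads both AI-10-49 values were above both DMSO values at 35.1% of all shared regions. Outside the other windows, a region at -57.1 kb from LYZ had 10 and 15 reads under DMSO and 16 and 19 under AI-10-49. At -39.8 kb from CTSG, a region had 6 reads in AI-10-49 replicate 2 alone.

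The region at 10.3 kb above ELANE, chr19:862156-862462, held a peak of every list and was higher under AI-10-49. Its DMSO peaks, chr19:862318-862383 in replicate 1 and chr19:862206-862282 in replicate 2, do not overlap each other and were joined only through the wider AI-10-49 peaks. With at least 5 reads, or with the strongest 48930 peaks of each list, the region was listed in both AI-10-49 libraries and in neither DMSO library, and with 50% reciprocal overlap no DMSO peak was matched to the AI-10-49 peaks. It had 4 reads in each DMSO library, 9 in AI-10-49 replicate 1 and 8 in AI-10-49 replicate 2, or means of 4 ± 0.0 and 8.5 ± 0.707 (SD, n = 2 each). Both AI-10-49 values were above both DMSO values on plain reads, on the relative scale (0.50 and 0.571 against 1.00 and 0.80, a log2 difference of 0.74) and as multiples of the background (65.3 and 66.7 against 93.3 and 74.4). This held for 35.1%, 19.7% and 5.21% of all shared regions, scale by scale in that order. Its percentile among shared regions was 9.80 and 11.7 under DMSO and 50.6 and 34.2 under AI-10-49. The Poisson intervals, 1.09 to 10.2 reads under DMSO and 4.12 to 17.1 and 3.45 to 15.8 under AI-10-49, overlap, and the difference was not tested. The local background that the peak caller set against this summit was also higher under AI-10-49, at 0.575 and 0.576 reads per base against 0.224 and 0.297 under DMSO. None of the 3 scales divides by this local background, and its part in the result was not tested.

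Beside it, chr19:862039-862133 had 4 reads in DMSO replicate 1 and 7 in AI-10-49 replicate 1, and chr19:862554-862618 had 3 reads in DMSO replicate 1 alone. At 20.9 kb, chr19:872851-872922 had 4 reads in DMSO replicate 1 and 4 in AI-10-49 replicate 2. None of these was shared by both replicates of a treatment.

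**Figure D2:**
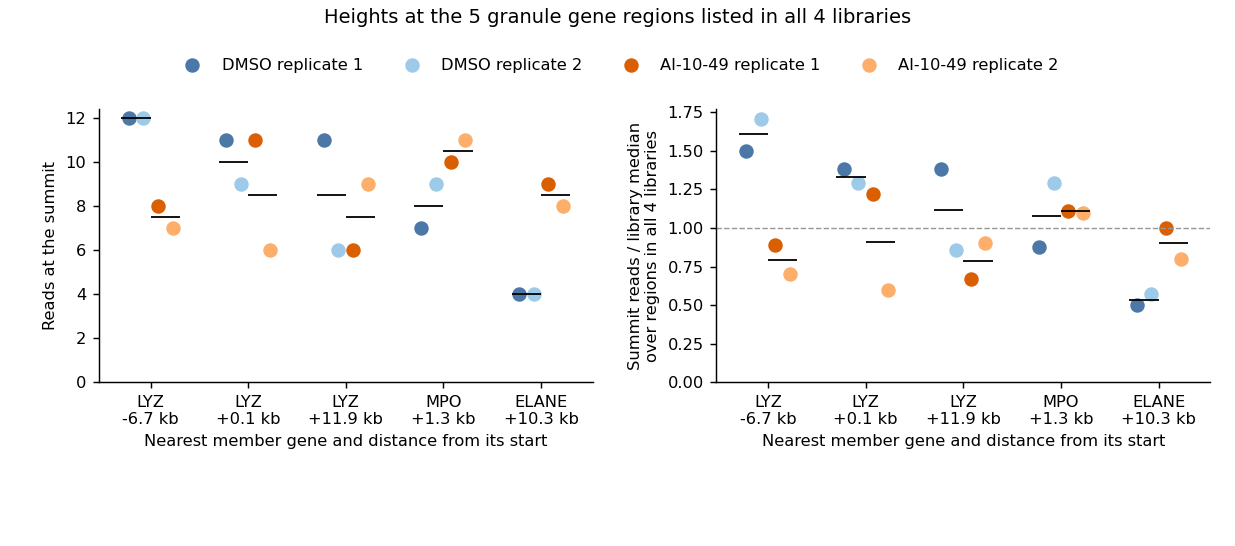
Heights at the 5 granule gene regions listed in all 4 libraries, as reads at the summit (left) and divided by the median summit of all regions listed in all 4 libraries (right); points are libraries, short lines the mean of 2 libraries, and the dashed line that median. DMSO points lie above AI-10-49 points at LYZ -6.7 kb in both panels and below them at ELANE +10.3 kb, while the order at MPO differs between the panels.

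CTSG had the fewest regions of the loci, 2, and neither was listed in all libraries. At its start, chr14:25045460-25045727 had 5 reads in DMSO replicate 1, 7 in AI-10-49 replicate 1 and 4 in AI-10-49 replicate 2. DMSO replicate 2 listed no peak there, and its nearest peak was 84.6 kb away. The DMSO value lay between those of AI-10-49, so the groups overlap at this promoter, whose sequence with its pair of GAGGAA matches is shown above. The other region, chr14:25074709-25074817 at 29.8 kb, just inside the window, had 9 reads in DMSO replicate 1 and 5 in AI-10-49 replicate 1. In RefSeq the neighbour on that side is GZMH, a granzyme gene of cytotoxic lymphocytes.

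Over the 5 regions with a peak of every list, the relative height of both AI-10-49 libraries was below both DMSO libraries at 2 (LYZ -6.67 kb and the LYZ start) and above at 1 (ELANE 10.3 kb), where the shares over all shared regions were 18.7% and 19.7%. On plain reads the counts were 1 below and 2 above (3.81% and 35.1% over all shared regions), and as multiples of the background 4 below and 1 above (47.9% and 5.21%), so the balance depended on the scale. The LYZ start was close to overlap, with 1.38 and 1.29 against 1.22 and 0.60. The median log2 difference of the 5 was -0.49 on the relative scale, against -0.0032 over all shared regions. It was -0.15 against 0.34 on plain reads and -0.89 against -0.41 as multiples of the background. Of the 5 regions, 3 lie in the LYZ window.

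Genes for other granule proteins were examined in the same way, at approximate hg19 starts from general knowledge. SERPINB1, for a cytosolic inhibitor of the granule proteases, was counted with them. The 14 genes held 55 and 48 peaks under DMSO and 49 and 53 under AI-10-49, in 84 regions. All 4 libraries listed 29 of these regions (34.5%), against 28.1% over all merged regions. Regions listed in both DMSO and neither AI-10-49 library were 4 of 37 (10.8%) and the opposite kind 2 of 38 (5.26%), close to the shares over all regions given above. A peak within 2 kb of the start was listed in all libraries for 5 of the 14, namely CTSC, BPI, CAMP, RNASE2 and SERPINB1. The share over all genes was not determined, so this count cannot be set against that of other genes. CTSC, which encodes the cathepsin that activates the granule serine proteases, had 35 and 33 reads under DMSO and 32 and 33 under AI-10-49 there. SERPINB1, an inhibitor of these proteases, had 11 and 15 reads under DMSO and 14 and 14 under AI-10-49. Thus the start of the activating enzyme's gene was listed with more than 30 reads in every library, and those of PRTN3 and ELANE were not listed in any.

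By number of peaks per library, the 2 other granule genes most like each locus, measured by the sum of absolute differences over 4 libraries, were EPX and LTF for MPO (sums 3 and 4), EPX and RNASE3 for the chromosome 19 locus (3 and 4, with 3 genes tied at 4), LCN2 and CEACAM8 for CTSG (3 and 5), and CTSC and PRG2 for LYZ (2 and 3, with 2 genes tied at 3).

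**Figure D3:**
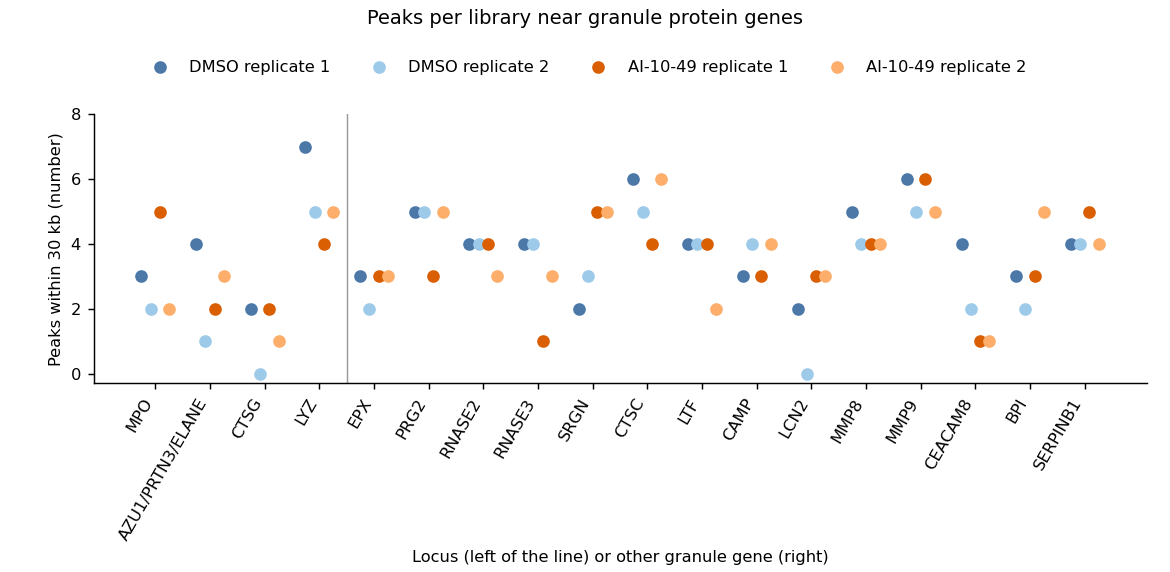
Number of peaks within 30 kb of the gene start in each library, for the 4 loci (left of the line) and 14 other granule genes (right). SERPINB1, for a cytosolic inhibitor, is counted among the 14. Points of the 2 treatments overlap or touch at most genes, CTSG and LCN2 had none in DMSO replicate 2, and LYZ in DMSO replicate 1 has the most, with 7.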

How the data were processed

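ATAC-seq was done on ME-1 cells with 2 libraries per treatment, grouped by sample title. The authors deposited 1 peak list per library, on hg19, and per the submitters' processing notes cutadapt 1.3, Bowtie2, Picard 1.96, MACS2 2.1.0 and deepTools were used, without their roles. The sources used here give neither caller settings nor read totals. The deposited lists give, as the authors' own values, an integer score (not used), the summit fold over background, a −log10 p-value and a −log10 q-value.

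Autosomal and X peaks were kept, and rows with equal coordinates joined. Summit reads were the whole number that, with the deposited fold, gave the deposited −log10 p-value by Poisson tail within 0.001, which held for 99.99% of peaks per list. In reads per base, the most frequent background level came to 0.0613 and 0.060 for the DMSO replicates and 0.0965 and 0.108 for the AI-10-49 replicates. Read recovery and merging were tested on simulated data. Python 3.11.15, pandas 2.3.3 and scipy 1.17.1 were used.

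Peak numbers were compared by an exact permutation test over libraries. Counts of regions and heights were described without a test. DMSO-only means listed in both DMSO libraries and in neither AI-10-49 library, and AI-10-49-only the opposite. All regions of the loci were named; the other granule genes and markers were a list with positions from general knowledge. Alternatives were a minimum −log10 q-value of 5, the strongest 48930 peaks, 60 times the background, 5 reads, windows of 10 and 100 kb, 50% reciprocal overlap, summits within 150 bp, pairing and leaving out each library. Members, lists and alternatives were chosen with earlier results of these data known. One marker gene of another cell type is not reported here.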

Additional observations from a re-analysis of the deposited data

How the results depend on the processing

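The difference in peak number near the granule genes was 0 and took either sign with the setting. It was -1 at a minimum −log10 q-value of 5, 3 with the strongest 48930 peaks or with at least 5 reads, -3 with 60 times the background, 1 within 10 kb and 2 within 100 kb, and without 1 library it ranged from -4 to 4. The groups did not overlap within 10 kb (5 and 5 peaks under DMSO, 6 and 6 under AI-10-49, two-sided exact permutation p = 0.333, the smallest possible). The 6 peaks of AI-10-49 replicate 1 included 2 in the same merged region, that at 1.26 kb from MPO. Counted as merged regions, that library would not exceed the DMSO libraries. Those of AI-10-49 replicate 2 included the AZU1 peak of 3 reads, the lowest number in its list. Over the whole lists, which the window does not change, the difference was -15076 peaks. Without DMSO replicate 1 (4) or 2 (-4) the groups did not overlap either, but 1 DMSO library then stood against both AI-10-49 libraries. With the replicate block the difference near the granule genes was 0 (pairs -3 and 3, two-sided exact sign-flip permutation p = 1, where 0.5 is the smallest possible). Over 29042 shared regions, deviations of the replicates 1 from their group means correlated at -0.0026. With so few reads per summit, this cannot decide whether replicate numbers pair the libraries.

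Regions in all libraries were 3 within 10 kb and 17 within 100 kb, by construction of the window. Each count below is followed by the share over all regions under the same setting. DMSO-only regions were 1 of 6 with 60 times the background (the LYZ region at 9.41 kb; 17%), 1 of 23 within 100 kb (11.8%), and 0 to 4 without 1 library (4 of 16 without DMSO replicate 2; 33.0%). AI-10-49-only regions were 0 of 5 at a minimum −log10 q-value of 5 (9.98%), 0 of 5 with 60 times the background (3.0%), 0 of 4 within 10 kb (5.36%), 2 of 8 with the strongest 48930 peaks (8.47%), 3 of 25 within 100 kb (5.36%), and 1 to 3 without 1 library (3 of 8 without DMSO replicate 1; 15.2%). Which region it was changed too: with at least 5 reads and with 50% reciprocal overlap it was the region 10.3 kb above ELANE and not that of MPO.

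The log2 height difference at MPO was -0.35 over the background and -0.22 to 0.34 without 1 library (-0.22 without DMSO replicate 1), against 0.06. At LYZ -6.67 kb and ELANE 10.3 kb the direction held on the 3 scales, none of which divides by the local background. Leaving out 1 library could not change it there, because the groups did not overlap. Summits of 2 to 12 reads limit what can be seen at any of these regions.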
